A study of Mus musculus with 2 samples.

Results

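Interferon response genes were read cell by cell in mouse kidney cortex. The list asked for 33 genes, and 32 of them were found by symbol among the 31053 genes of the count tables, Mx2 being the exception. Membership rested on the symbols alone and used no measured value. The series holds 1 library from PT I-PpoI mice and 1 library from wild type mice, both from kidney cortex at 16 weeks of age. Per the series title, PT I-PpoI mice express I-PpoI, a homing endonuclease that cuts DNA, specifically in the epithelial cells of the proximal tubule (PT). The labels name neither the promoter that drives it nor how many animals were pooled per library, and the transgene's own transcript was not analysed here. With 1 library per group there is no replicate spread and no test between the groups. All intervals below are exact 95% intervals that cover counting error only.

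Interferons are secreted when a cell senses foreign or misplaced nucleic acid. Type I interferons (alpha and beta) signal through Ifnar1 and Ifnar2 to a complex that holds Stat2 and Irf9 and binds the interferon-stimulated response element (ISRE). Interferon gamma, made by T and natural killer (NK) cells, signals through Ifngr1 and Ifngr2, and many of its target genes carry the gamma-activated site (GAS). The list holds target genes of both arms: IFIT proteins that bind foreign RNA, the ubiquitin-like modifier Isg15 with its protease Usp18, RNA and DNA sensors, transcription factors, GTPases that act on intracellular pathogens, antiviral enzymes such as Rsad2 and Oas1a, and the membrane restriction factors Bst2 and Ifitm3.

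The promoters of the members whose values lead the results are shown because they carry the element that the type I pathway reads. They are RefSeq sequences of GRCm38.p6, printed 5′ to 3′ on the gene's own strand, and capitals mark every match to the ISRE core (GAAA, any 2 bases, GAAA) on either strand, so a match on the other strand reads TTTC, any 2 bases, TTTC. Overlapping matches run together.
Ifit1 (chr19:34640765-34640833, plus strand): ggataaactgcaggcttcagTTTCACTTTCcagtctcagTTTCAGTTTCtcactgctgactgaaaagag
Ifit3 (chr19:34583353-34583436, plus strand): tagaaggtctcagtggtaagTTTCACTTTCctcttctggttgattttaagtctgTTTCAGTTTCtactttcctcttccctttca
Ifit3b (chr19:34607749-34607832, plus strand): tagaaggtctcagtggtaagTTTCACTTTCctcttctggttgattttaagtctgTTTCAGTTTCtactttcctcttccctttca
Isg15 (chr4:156200855-156200916, minus strand): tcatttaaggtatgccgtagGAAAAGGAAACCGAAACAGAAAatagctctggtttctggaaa
Rsad2 (chr12:26456543-26456592, minus strand): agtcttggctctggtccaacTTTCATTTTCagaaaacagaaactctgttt
Irgm1 (chr11:48871421-48871470, minus strand): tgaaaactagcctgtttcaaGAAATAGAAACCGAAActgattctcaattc
Gbp2 (chr3:142620584-142620633, plus strand): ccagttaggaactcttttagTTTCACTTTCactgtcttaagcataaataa

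The matches shown begin 104 and 85 bases upstream of the Ifit1 start, 156 and 122 bases upstream for Ifit3, 188 and 154 for Ifit3b, 120 for Rsad2 and 59 for Gbp2. Over 300 bases (250 before to 50 after the start), the ISRE core stood in 15 of the 25 members that had a promoter in the table, which is 60%, against 3.99% of 27025 genes. The GAS letters TTCNNNGAA stood in 7 of 25 members, which is 28%, against 9.55% of genes. Usp18, Dhx58, Zbp1, Mx1, Parp14, Ifi27 and Rtp4 had no promoter in the table. Ifi44, Ifit2, Irf7, Oasl2, Trim25, Irf9, Irf1, Ifi47, Ifi35 and Xaf1 had a promoter in the table but no match to the ISRE core in this window. The Ifit3 and Ifit3b stretches matched at 84 of 84 bases, and the 2 promoters at 201 of 268 aligned bases (75%). The 2 genes lie 19239 bases apart on chromosome 19, Ifit3 at 34583531 to 34588731 and Ifit3b at 34607970 to 34613401 (mm10), and reads of these paralogs may be split between them, so their separate values are uncertain. The same holds for the paralogs Gbp2 and Gbp3.

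Cells were counted in unique molecular identifiers (UMIs, each standing for 1 captured RNA molecule). The PT I-PpoI library gave 5125 cells, whose median depth was 11110 UMIs, and the wild type library 11974 cells, whose median depth was 2690. Cells were grouped into 36 clusters on genes that left out the members and 53 other interferon pathway genes, and clusters were named from marker genes. Of the classes so formed, 13 held 50 or more cells in each library and were compared. PT-like cells numbered 169 and 5949, so the PT values of the PT I-PpoI library rest on few cells. By class, 3.77% to 42.2% of the UMIs of the PT I-PpoI library were estimated to be free RNA from the droplets, and 12.5% to 70.5% of those of the wild type library. The 2 libraries shared 22 cell barcodes. Levels are CPM, a class's UMIs of a gene scaled to the same total in every class and library; a UMI is read at the 3′ end and counts a molecule whatever the gene's length. Because CPM is a share, each level moves with the other RNAs of its class, and less RNA per cell cannot be told apart from dilution. Scaling by trimmed means (TMM) would move all log2 ratios by −0.37 in PT-like, −0.18 in endothelial-like −0.16 in macrophage-like and conventional dendritic-like, −0.14 in mural-like and 0.13 in intercalated-like cells, and by less than 0.1 in the others.

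Endothelial cells had the highest levels. Summed over the members, the level was 7063 CPM (6336 in wild type) in endothelial-like cells, 2454 (1660) in macrophage-like, 2125 (1976) in conventional dendritic-like, 1795 (1863) in thin limb-like and 1345 (1573) in T or NK-like cells. Parietal-like cells, counted with the tubule classes, stood at 1253 (913) CPM. The other tubule classes except the thin limb lay between 174 and 479 CPM in PT I-PpoI and between 141 and 404 in wild type. Endothelial-like cells gave the highest level of 20 of 32 members in PT I-PpoI (21 in wild type), where 15% and 12.3% of all genes were highest in that class. A tubule class was highest for 4 members in each library, against 53.4% and 61.0% of all genes. An immune class was highest for 8 and 7 members, against 22.0% and 19.2% of all genes. The T or NK-like class led for Zbp1, a nucleic acid sensor, and for Igtp and Ifi47, both GTPases induced by interferon gamma, in each library, a share of the list near the 10.7% and 8.26% of all genes that were highest there. The Ifi47 interval lay apart from that of the next class in both libraries and the Zbp1 interval in wild type alone, while the Igtp intervals overlapped those of the next class, at 65.8 CPM beside 50.4 in parietal-like cells (PT I-PpoI) and 41.9 beside 36.7 in endothelial-like cells (wild type).

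**Figure D1:**
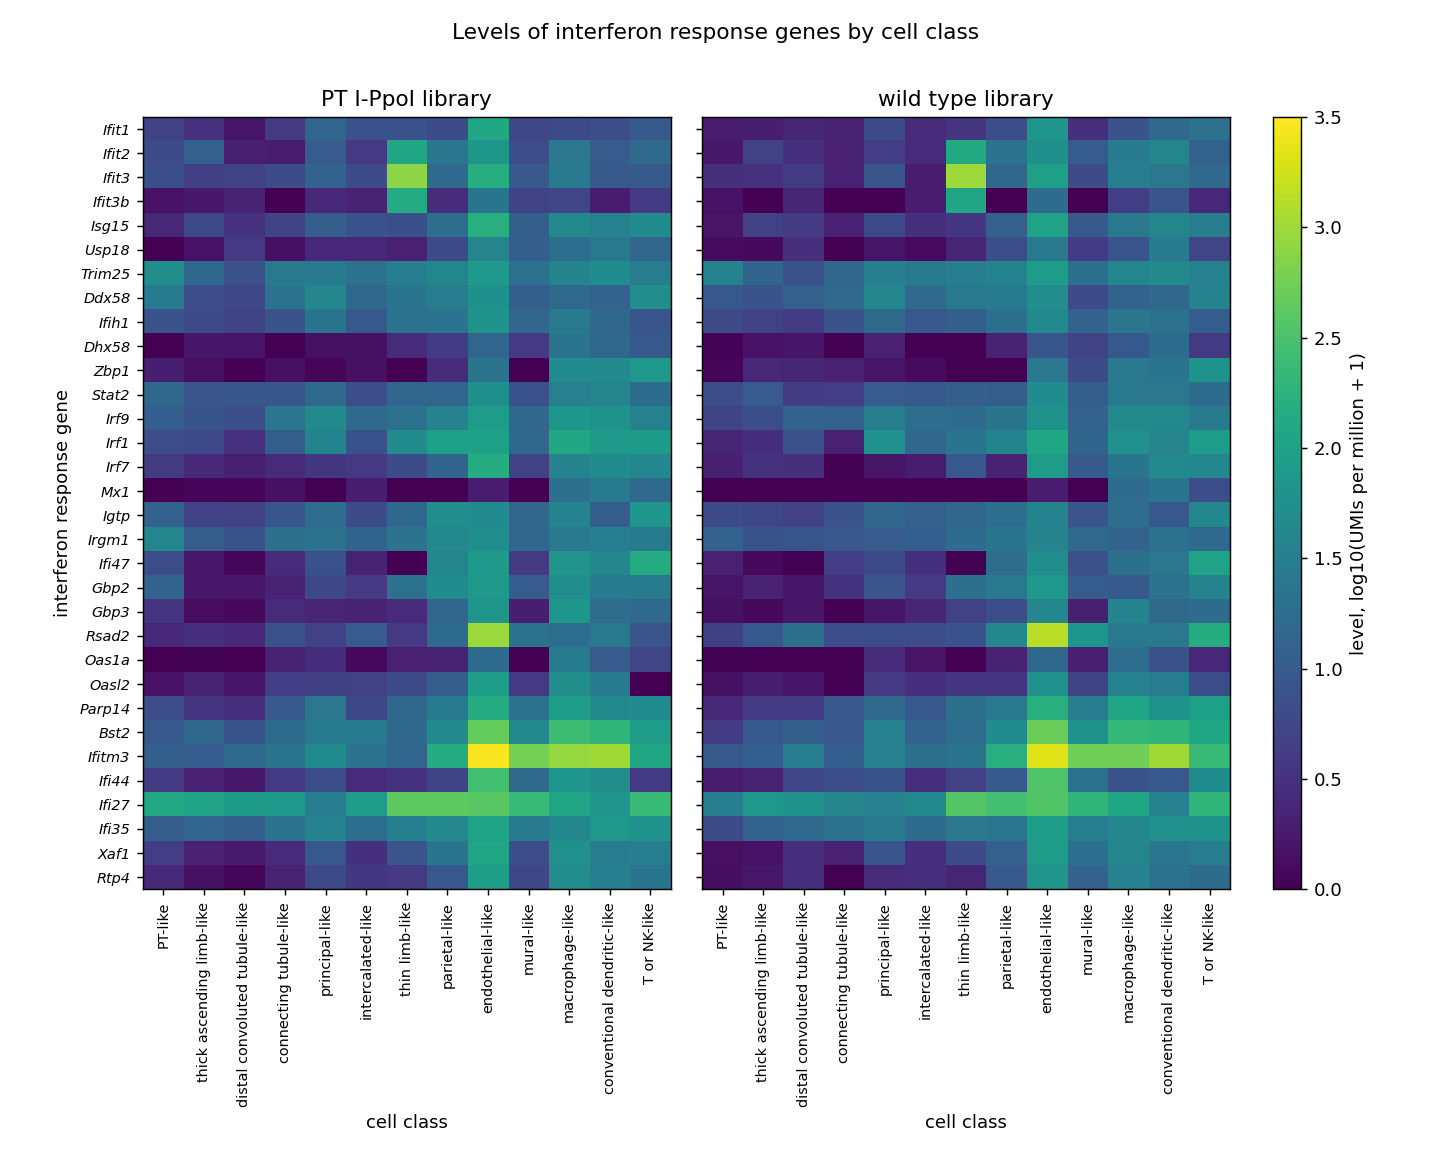
Level of each member (rows, grouped by role) in the 13 classes (columns) of the PT I-PpoI library (left) and the wild type library (right), as log10(CPM + 1) on the same colour scale. The endothelial-like column is bright over most rows, and Ifit3 stands out in the thin limb-like column at 784 and 974 CPM.

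In endothelium, Ifitm3, a membrane protein that blocks virus entry, was the most abundant member at 2940 CPM in PT I-PpoI against 2150 in wild type, read in 816 of 844 and 1900 of 2106 cells. Rsad2 (viperin), an enzyme that makes a chain-terminating nucleotide, followed at 947 CPM [926, 970] and 1385 CPM [1354, 1416]. Rsad2 was thus lower in PT I-PpoI, at a log2 ratio (PT I-PpoI over wild type) of −0.55 [−0.59, −0.50]. Bst2 (tetherin), which holds budding virions at the cell surface, stood at 465 and 509 CPM, and Ifi44 at 275 and 339 CPM. Rsad2, Bst2 and Ifi44 were thus each lower in PT I-PpoI over the whole class.

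Of the 32 members, all of which had enough UMIs to be compared in endothelium, 25 were higher in PT I-PpoI and 7 lower, over a log2 range of −0.55 to 0.84. None passed 2-fold, where 6.61% of all genes were 2-fold or more higher and 5.37% lower. The median log2 ratio was 0.38 beside 0.19 over all genes. The members with the highest ratios were Ifit1, Irf7, Dhx58 and Gbp3. Ifit1 stood at 120 CPM in PT I-PpoI against 67.1 in wild type (log2 ratio 0.84 [0.66, 1.01]), and Irf7, the transcription factor that amplifies interferon production, at 144 and 82.0 CPM (0.81 [0.66, 0.97]). Isg15 stood at 158 and 102 CPM, Gbp3 at 65.1 and 40.7 CPM, and Dhx58, an RNA sensor of the RIG-I family, at 12.9 and 7.55 CPM.

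The endothelial-like class was made of clusters that the libraries filled unequally. Cluster 14, led by Btnl9, Esm1 and Kdr, held 409 of 844 cells in PT I-PpoI against 1387 of 2106 in wild type, and cluster 9, led by Slc14a1, Mest and Sox17, held 295 and 383. Rsad2 was highest in cluster 14, at 1766 CPM in PT I-PpoI against 1986 in wild type, against 799 and 785 in cluster 9. The Rsad2 ratio was −0.17 within cluster 14 and 0.03 within cluster 9, smaller than over the whole class. Ifi44 had a ratio of 0.23 in cluster 14 and 0.73 in cluster 9, the opposite sign to the whole class. Within cluster 15, led by Gpr182 and Plvap and holding 82 and 304 cells, Ifi44 had the same sign as the whole class, at 288 and 389 CPM (−0.43), and Rsad2 stood at 629 and 668 CPM (−0.08). Bst2 was higher in PT I-PpoI in cluster 14, at 599 CPM against 558 in wild type, the opposite sign to the whole class. Bst2 was lower in PT I-PpoI in cluster 9 (448 and 464 CPM) and in cluster 15 (406 and 466 CPM). Ifit1 was higher in PT I-PpoI in clusters 9 and 14, at 103 and 79.0 CPM in cluster 14 and at 146 and 64.0 CPM in cluster 9. Within clusters 9 and 14 alike, 28 of 31 members were higher in PT I-PpoI. The medians were 0.52 and 0.39, beside 0.15 and 0.22 over all genes. Within cluster 15, 18 of 28 were higher and 10 lower, with a median of 0.29 beside 0.17 over all genes. The median over all genes was thus itself above 0 in these clusters.

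The thin limb carried an IFIT signal of its own. Ifit3, an adaptor that stabilises Ifit1 on RNA, reached 784 CPM [744, 826] in PT I-PpoI against 974 CPM [905, 1047] in wild type, the highest of the 13 classes, where endothelium came next with 149 and 97.6 CPM. Ifit3b stood at 140 and 115 CPM and Ifit2 at 123 and 131 CPM, again the highest of all compared classes in each library; 10.9% and 15.2% of all genes were highest in the thin limb. Ifit1, Isg15 and Rsad2 stayed low there, at 6.70, 6.14 and 2.79 CPM in PT I-PpoI and 2.62, 2.62 and 6.56 CPM in wild type. Ifit3 was high without the neighbouring gene Ifit1, and was so in both libraries. The Ifit3 log2 ratio was −0.31 [−0.44, −0.18].

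Of the thin limb's 18 members that could be compared, 1 was 2-fold or more higher in PT I-PpoI, where 4.57% of all genes were, and none was 2-fold or more lower, where 2.72% were. The 1 member was Irf1, the transcription factor induced by interferon gamma, at 47.4 CPM in PT I-PpoI against 22.3 in wild type (1.06 [0.33, 1.93]). The class rests on 78 and 67 cells.

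Macrophage-like cells showed the largest differences in GTPases and in Ifi44. Ifi44, a cytosolic interferon-induced protein, stood at 67.4 CPM [54.3, 82.6] in PT I-PpoI against 6.84 CPM [3.74, 11.5] in wild type, a log2 ratio of 3.26 [2.48, 4.23] from 92 and 14 UMIs. Gbp2, a GTPase that coats vacuoles holding pathogens, stood at 50.5 and 8.80 CPM (2.49 [1.76, 3.36]). Ifi47 stood at 65.9 and 18.6 CPM (1.82 [1.27, 2.41]) and Igtp at 37.3 and 16.6 CPM (1.16). Irf1 stood at 120 and 58.1 CPM. The intervals of each of these genes, named for their ratios or levels, did not overlap between the libraries. That covers counting error only, and the share of all genes with intervals apart is not given here.

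Of 32 members compared in macrophages, 26 were higher and 6 lower. Past 2-fold, 8 were higher, where 5.68% of all genes were, and none was 2-fold or more lower, where 5.75% were. With free RNA subtracted 5 were higher. These 8 were Ifi44, Gbp2, Ifi47, Dhx58, Usp18, Igtp, Irf1 and Zbp1. By role, the 6 GTPases had a median log2 ratio of 1.07 and the 4 IFIT genes one of −0.24, beside a median of 0.57 over the list and 0.13 over all genes. Ifit2 and Ifit3 were 23.4 and 24.9 CPM in PT I-PpoI and 27.4 and 30.3 CPM in wild type, and Rsad2 was 17.6 and 25.4 CPM. Summed endothelial markers in this class were 76.1 CPM in PT I-PpoI against 112 in wild type. Their part in the macrophage values was not tested.

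Conventional dendritic-like cells shared the Ifi44 difference. Ifi44 stood at 52.6 CPM in PT I-PpoI against 8.19 in wild type (2.62 [1.67, 3.88]). It came from 36 of 116 and 8 of 249 cells, at unlike median depths of 9665.5 and 4600 UMIs. Zbp1 was 47.6 and 21.8 CPM and Irf1 75.1 and 38.2 CPM. Of 31 members, 2 were 2-fold or more higher (Ifi44 and Zbp1), where 8.08% of all genes were, and 3 were 2-fold or more lower, where 4.15% were. The 3 lower members were IFIT genes, with Ifit2 at 9.18 CPM in PT I-PpoI against 39.1 in wild type. Of the 43 wild type Ifit2 UMIs, 76.7% lay in 3 cells. The wild type cell with the most member UMIs held 11 of these Ifit2 UMIs. It read 0 of 7 dendritic markers and 22 macrophage-marker UMIs. The PT I-PpoI cell with the most member UMIs also read 0 of 7 dendritic markers. The part of such cells in the class values was not tested. Without the cells that carried many interferon genes at once (described below), 7 members were 2-fold or more higher and none lower. All 5 cells so removed were wild type, and they held 146 of that library's 331 UMIs of the genes used to pick them. The removal thus lowers the wild type levels by construction, so these counts cannot show a difference between the libraries. The share of all genes without these cells is not given here.

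In T or NK-like cells the list had no common direction. Of 28 members, 2 were 2-fold or more higher, where 4.57% of all genes were, and 4 were lower, where 10.4% were, with a median of 0.05. Ifi47 stood at 140 CPM in PT I-PpoI against 101 in wild type and Igtp at 65.8 and 41.9 CPM (0.66 [0.06, 1.24]). Rsad2 stood at 7.32 and 148 CPM (−4.20) and Ifi44 at 2.93 and 49.2 CPM (−3.76), which is the opposite direction to macrophages.

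Endothelial markers moved with those last values: summed over 10 markers they were 218 CPM in PT I-PpoI against 1737 in wild type. They lay in cluster 32, led by the NK genes Ncr1, Gzma and Klrb1c. That cluster held 12 and 97 cells, endothelial markers at 1797 and 5543 CPM with 0 of 10 at 0, and 182 of the 201 wild type Rsad2 UMIs. In cluster 16, led by the T cell genes Cd3g, Cd3e and Trbc2, endothelial markers were 61.1 and 186 CPM, Rsad2 was 8.04 and 19.7 CPM, and Ifi44 was 3.22 and 2.07 CPM. Within cluster 16 the list gave 3 of 25 members 2-fold or more higher and 1 lower, with 6.39% and 6.17% of all genes. The median there was 0.25 beside 0.13 over all genes. The part of endothelial RNA in the Rsad2 and Ifi44 values was not tested beyond this split.

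**Figure D2:**
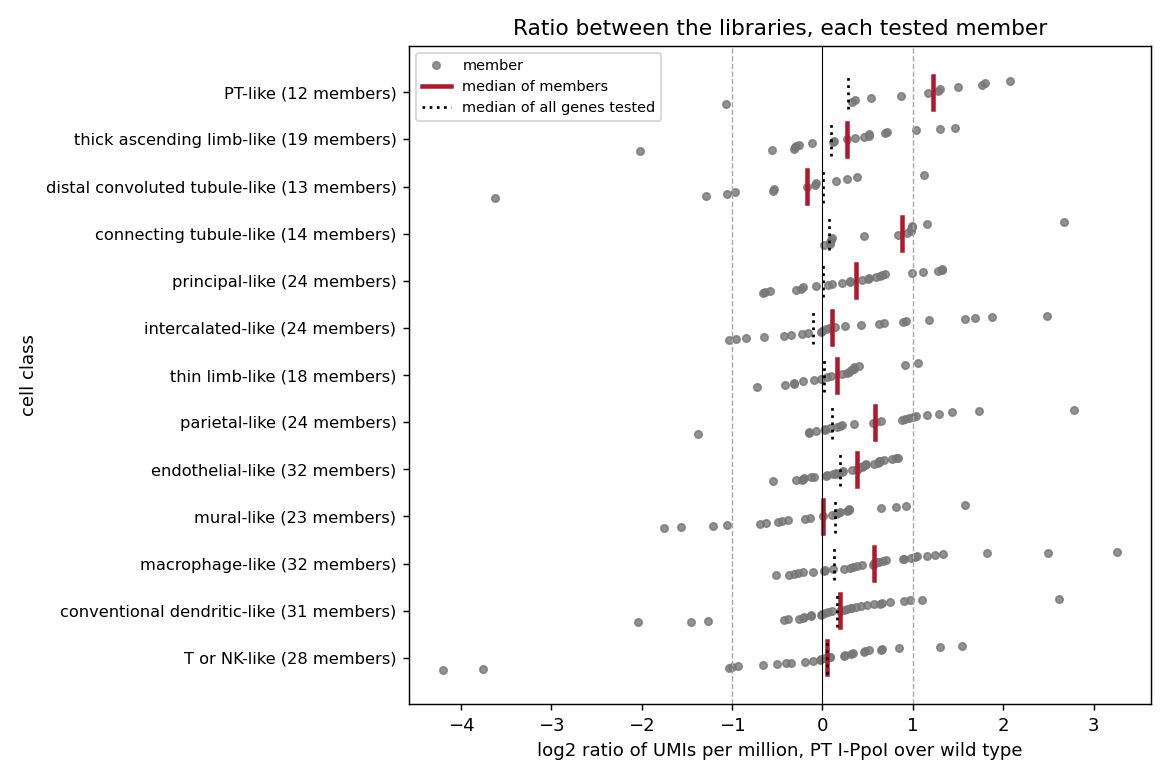
Log2 ratio of CPM, PT I-PpoI over wild type, for every member with enough UMIs (grey points) in each class, with the median of members (red bar) and of all genes tested (dotted bar). The member median lies at 1.22 in PT-like, 0.88 in connecting tubule-like and 0.57 in macrophage-like cells, and at −0.17 in distal convoluted tubule-like cells.

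The proximal tubule, where I-PpoI is expressed, had the lowest summed level of all classes in wild type, 141 CPM, and 381 CPM in PT I-PpoI. The most abundant members were not the strongly inducible ones. Ifi27, a small interferon-inducible membrane protein, stood at 127 CPM [112, 143] in PT I-PpoI against 30.2 CPM [28.4, 32.1] in wild type, a log2 ratio of 2.07 [1.87, 2.27]. Irgm1, a GTPase that directs autophagy of pathogen vacuoles, stood at 40.0 and 11.5 CPM (1.80 [1.44, 2.14]). Ddx58 (RIG-I), the sensor of RNA with a 5′ triphosphate, stood at 28.0 and 8.29 CPM (1.76 [1.32, 2.17]). Trim25, the ubiquitin ligase that activates RIG-I, stood at 52.5 and 36.3 CPM (0.54 [0.24, 0.82]), within 2-fold.

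The signalling factors Stat2 (13.98 and 5.84 CPM) and Irf9 (10.1 and 4.19 CPM) and the GTPase Igtp (11.6 and 5.24 CPM) were also more than 2-fold higher. Rsad2 was the lower member, at 1.45 and 3.53 CPM from 3 and 118 UMIs, with an interval of −3.59 to 0.29 that spans 0. Of 12 members compared, 7 were 2-fold or more higher, where 8.47% of all genes were, and 1 lower, where 3.43% were. The number higher was 4 with TMM factors and 2 among members with 20 or more expected UMIs. It was 13 of 18 (11.1% of all genes, and 1 lower with 2.97%) when the filter used the mean of the 2 levels. That filter can admit a member through its PT I-PpoI level alone, so the direction of the members it adds is partly set by the filter. Those it added to the count were Ifit2, Ifit3, Irf1, Ifi47, Gbp2 and Parp14. The 20 other members had too few UMIs. Among them Ifit1 had 8 and 29 UMIs, Ifit2 11 and 24, Ifit3 13 and 65, and Isg15 3 and 17. Gbp2 had 25 UMIs in PT I-PpoI, of which 23 lay in 1 cell.

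Several measured facts stand beside the PT values. Of the PT-like cells, 107 of 169 in PT I-PpoI against 866 of 5949 in wild type lay in cluster 7, so the 2 libraries fill the class from different clusters. Within cluster 7 the median of 10 members was 0.90, beside 0.21 over all genes. Of these members, 5 were 2-fold or more higher and none lower (4.04% and 1.90% of all genes). The ambient profile held Ifi27 at 135 CPM in PT I-PpoI against 32.4 in wild type, close to the PT-like levels, while free RNA was estimated at 5.15% and 17.8% of PT-like UMIs. For Irgm1 and Ddx58 the ambient levels were lower than the PT-like level of PT I-PpoI, 11.1 and 14.6 CPM. Macrophage markers summed to 723 CPM in PT I-PpoI against 196 in wild type in PT-like cells, with 2 of 8 and 0 of 8 markers at 0. The ambient profile held the same markers at 607 and 314 CPM. They include Apoe, which was left out of the markers used to estimate free RNA, and its share of the sum is not given here. Endothelial markers summed to 40.0 and 35.4 CPM. The part of cell mixture in the PT ratios was not tested.

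**Figure D3:**
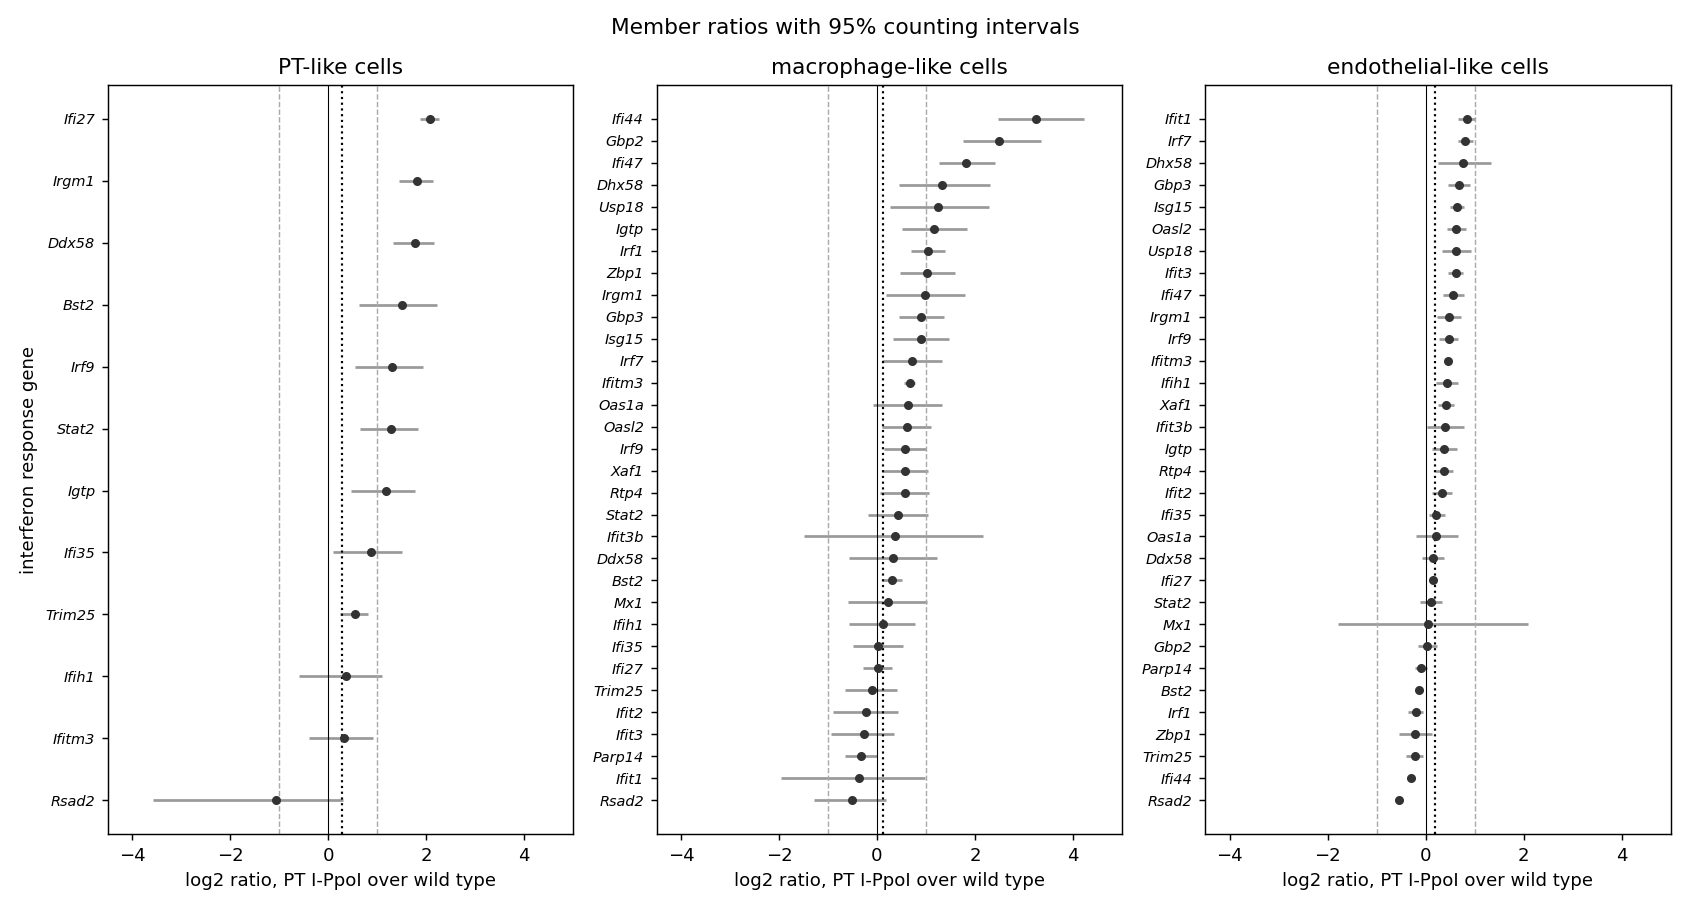
Log2 ratio of each compared member with its exact 95% counting interval in PT-like, macrophage-like and endothelial-like cells. Dashed lines mark 2-fold and the dotted line the median of all genes; Ifi27, Irgm1 and Ddx58 lead in PT-like cells, Ifi44, Gbp2 and Ifi47 in macrophage-like cells, and all endothelial values lie within 2-fold.

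In the other tubule segments, levels were low and few members differed by 2-fold. In the thick ascending limb, Ifit2 stood at 10.8 CPM in PT I-PpoI against 3.77 in wild type (1.47 [0.78, 2.35]). It was read in 157 of 1421 and 16 of 939 cells, at unlike median depths of 12525 and 2585 UMIs. Irf1 stood there at 4.92 and 1.89 CPM, though its log2 ratio went from 1.30 to −0.13 when predicted doublets were kept, and Ifi27 at 103 and 71.4 CPM. Rsad2 was lower, at 2.03 and 8.25 CPM (−2.02 [−2.72, −1.32]), in a class where summed endothelial markers were 27.6 and 71.0 CPM. Of 19 members, 3 were 2-fold or more higher and 1 lower, where 2.10% and 2.53% of all genes were.

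The distal convoluted tubule had 4 of 13 members higher and 9 lower, with 1 and 3 past 2-fold (2.10% and 3.22% of all genes). Rsad2 stood there at 1.49 CPM in PT I-PpoI against 18.7 in wild type, and 26 of the 29 wild type UMIs lay in 4 cells. Endothelial markers were 25.7 and 139 CPM in that class, and the cell with the most member UMIs in wild type also carried 52 endothelial-marker UMIs. Their part in the Rsad2 value was not tested.

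In the connecting tubule all 14 compared members were higher in PT I-PpoI, the median being 0.88 beside 0.07 over all genes. Of these, 2 passed 2-fold upward (4.10% of all genes) and none downward (2.11%): Irf1, from 25 and 1 UMIs, and Irgm1, at 18.6 and 7.88 CPM. A single cell of the PT I-PpoI library held 16 of the Irgm1 UMIs. Over the alternative processing settings the Irgm1 log2 ratio ranged from 0.39 to 1.34. Bst2 was 16.5 and 7.88 CPM and Ifi27 76.4 and 38.3 CPM.

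Principal cells, which carry the water channel of the collecting duct, had 4 of 24 members 2-fold or more higher and none lower (2.31% and 2.34% of all genes). Ifit1 stood at 12.9 CPM in PT I-PpoI against 5.06 in wild type, Irgm1 at 20.1 and 8.996 CPM, Ifit2 at 9.09 and 3.37 CPM, and Rtp4 at 4.88 and 1.69 CPM. The wild type values rest on 3 to 16 UMIs. Irf1 went the other way, at 36.9 and 57.4 CPM (−0.64 [−0.96, −0.30]). With the libraries clustered separately 8 members were 2-fold or more higher, and without the top 1% of cells 2 were.

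Intercalated cells, which secrete acid or base, had 5 of 24 members 2-fold or more higher and 1 lower (1.62% and 4.89% of all genes). Ifit3 stood at 5.35 CPM in PT I-PpoI against 0.827 in wild type, Ifit1 at 6.499 and 1.65 CPM, Isg15 at 6.60 and 1.93 CPM, and Bst2 at 26.4 and 11.6 CPM (1.18 [0.71, 1.70]). A single cell of the PT I-PpoI library held 46 of the 63 Isg15 UMIs, 36 of the 62 Ifit1 UMIs and 26 of the 51 Ifit3 UMIs. Without it, the count was 2 higher and 3 lower. Irf1 was the lower member, at 6.60 and 13.5 CPM.

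Parietal cells line the capsule around the glomerulus. The parietal-like class had Igtp at 50.4 CPM in PT I-PpoI against 18.1 in wild type (1.44 [0.67, 2.38]). Irf1 stood there at 92.9 and 37.4 CPM (1.29 [0.75, 1.92]) and Ifi47 at 38.9 and 16.9 CPM. Gbp2 stood at 49.2 and 24.2 CPM. Of 24 members, 6 were 2-fold or more higher and 1 lower (4.56% and 2.12% of all genes). Free RNA in this class was estimated at 42.2% and 62.3%, an estimate that counts PT markers as foreign. PT markers summed to 2484 CPM in PT I-PpoI against 4063 in wild type, beside 955 and 6093 CPM in the ambient profile. The part of PT cells in the parietal-like values was not tested. In mural-like cells, where free RNA was estimated at 18.7% and 70.5%, the member median was 0.00; 1 of 23 members was 2-fold or more higher and 4 lower (6.93% and 6.87% of all genes). Ifitm3 stood there at 583 and 542 CPM.

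Whether few cells held the UMIs depended on the gene and the class. In the thin limb, Ifit3 was read in 69 of 78 cells in PT I-PpoI against 57 of 67 in wild type, and 10 and 9 cells held 50% of its UMIs. The cell with the most held 161 of 1405 and 66 of 743 UMIs. Cells therefore differed widely around a signal that most of them carried. In endothelium, Rsad2 was read in 726 of 844 and 1721 of 2106 cells, and 134 and 399 cells held 50%. Ifit1 was rarer, read in 289 of 844 and 239 of 2106 cells, at unlike median depths of 4565.5 and 2108.5 UMIs. On cells thinned to 2000 UMIs, the variance over the mean was 3.09 and 2.71 for endothelial Rsad2 and 2.76 and 2.54 for thin limb Ifit3, where random sampling of like cells gives a value near 1. In endothelium, 9 of 30 and 7 of 31 members reached 1.5, where 3.99% and 3.15% of all genes did.

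The macrophage Ifi44 UMIs were spread, with 92 UMIs in 59 of 248 cells and at most 6 in a cell in PT I-PpoI. Wild type had 14 UMIs in 13 of 682 cells. Median depths of these classes were 4906 and 2702 UMIs. Gbp2 was less evenly held, since 16 of its 69 UMIs lay in 1 cell. In PT-like cells Ifi27 was read in 84 of 169 and 768 of 5949 cells and Irgm1 in 56 of 169 and 333 of 5949. Thinned to 2000 UMIs, the shares were 20.2% and 6.59% for Ifi27 and 10.4% and 2.35% for Irgm1. Median depths of PT-like cells were 10999 and 3109 UMIs before thinning.

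**Figure D4:**
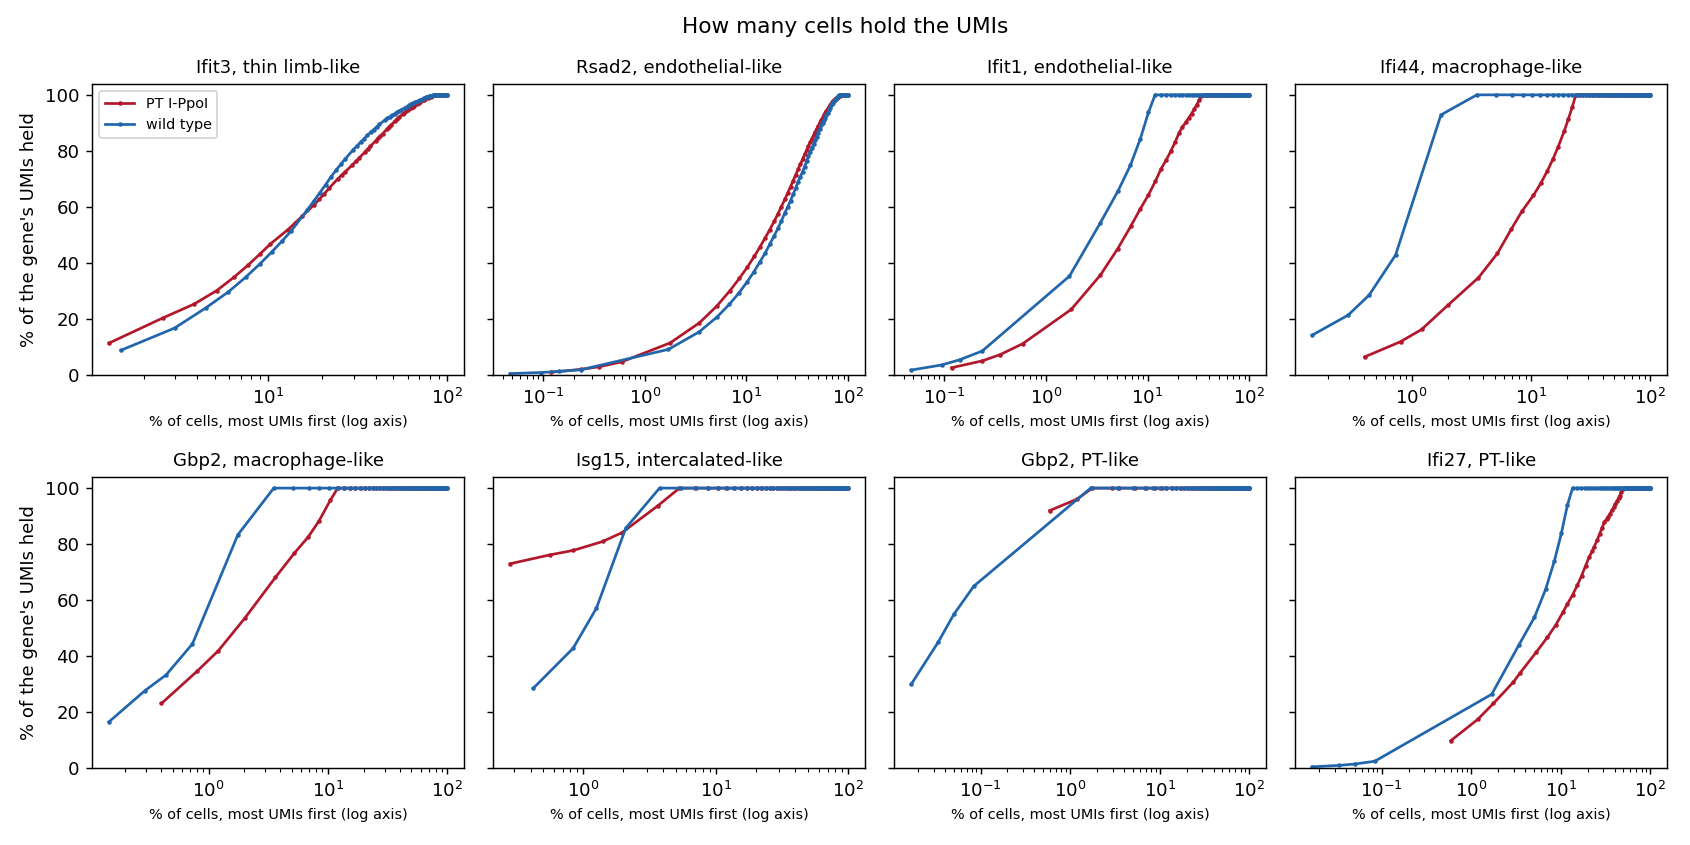
Share of a gene's UMIs (vertical axis) held by the given share of cells of a class, cells with most UMIs first (horizontal log axis), per library. Thin limb Ifit3 and endothelial Rsad2 curves climb slowly in both libraries, whereas in PT I-PpoI 1 intercalated-like cell holds 73.0% of Isg15 and 1 PT-like cell holds 23 of 25 Gbp2 UMIs.

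Cells that read 4 or more of 12 strongly inducible members (Ifit1, Ifit2, Ifit3, Ifit3b, Isg15, Ifi44, Rsad2, Mx1, Usp18, Oasl2, Irf7, Rtp4) were counted as interferon-high, a range rather than a cell type. On cells thinned to 2000 UMIs they made up 188 of 758 endothelial-like cells in PT I-PpoI (24.8% [21.8, 28.0]) and 195 of 1174 in wild type (16.6% [14.5, 18.9]). Without thinning the shares were 54.3% and 19.9%, at median depths of 4565.5 and 2108.5 UMIs; 86 and 932 cells were too shallow to be thinned. Within cluster 9 the thinned shares were 26.0% and 14.1%, and within cluster 14 they were 30.4% and 20.2%. Within cluster 15 they were 9.59% (7 of 73) and 9.23% (18 of 195). With the shallower cells taken as read, 200 and 299 endothelial interferon-high cells held 44.5% and 28.9% of the class's UMIs of these 12 genes with 21.2% and 13.95% of all its UMIs.

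In the other compared classes thinned shares were lower. Such cells were 5 of 243 macrophage-like cells (2.06%) in PT I-PpoI and 10 of 578 (1.73%) in wild type, at unthinned shares of 11.3% and 1.91%. They were 0 of 105 and 4 of 165 conventional dendritic-like cells and 1 of 131 and 7 of 357 T or NK-like cells. Without thinning, the shares were 15.5% and 3.61% in conventional dendritic-like, 2.17% and 3.41% in T or NK-like, 11.4% and 1.01% in parietal-like and 4.79% and 0.565% in principal-like cells. In PT-like cells there were 0 of 163, which allows a share of up to 1.84% by the limit of 3 counts and 2.24% by the exact interval, and 2 of 3657 (0.0547%). No thinned cell passed in thick ascending limb, distal convoluted tubule, connecting tubule, principal, parietal or mural classes, which serve as the comparators with the lowest share. The thin limb had 0 of 75 and 1 of 64 thinned cells, 5 of 75 and 6 of 64 with 3 or more of the genes, and 20 of 78 (25.6%) and 6 of 67 (8.96%) without thinning, at median depths of 17686 and 5607 UMIs.

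The intercalated-like interferon-high cell of PT I-PpoI carried 48077 UMIs, 291 of them from 29 members, with 11 of the 12 strongly inducible genes read. It showed 7 of 10 intercalated markers and 14 endothelial-marker UMIs. It held 41.7% of the class's UMIs of the 12 genes with 0.504% of its UMIs.

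**Figure D5:**
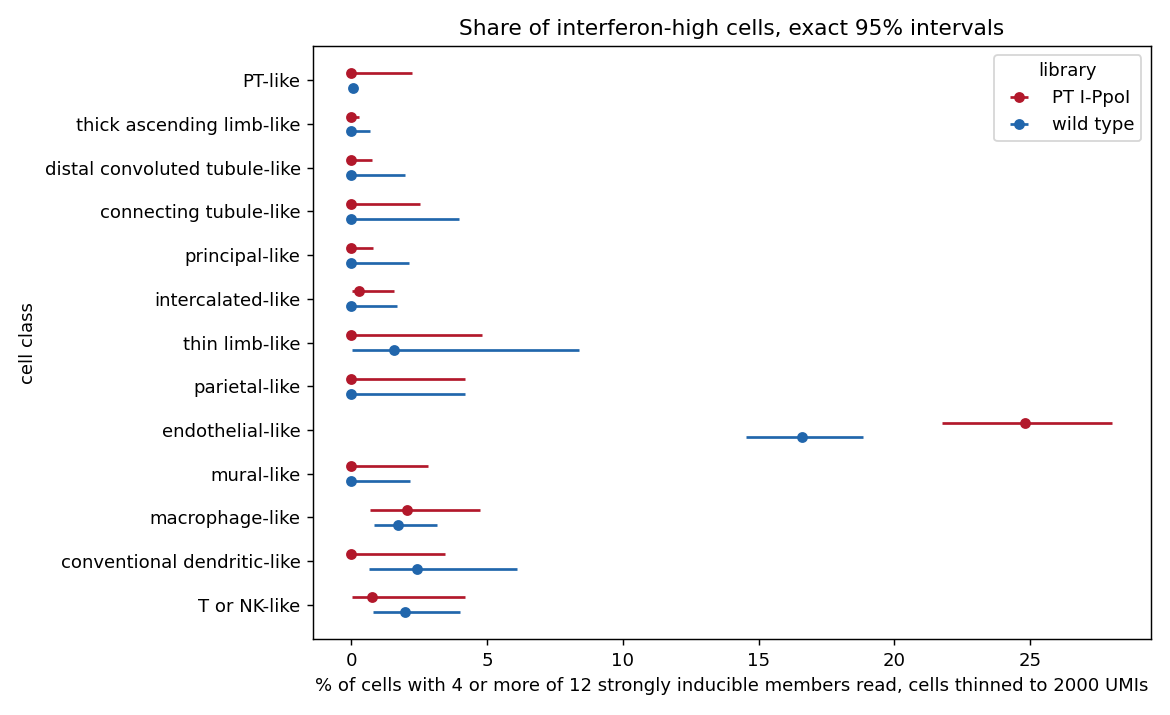
Share of interferon-high cells (horizontal axis, percent, points) with exact 95% intervals (bars) per class and library, after thinning to 2000 UMIs. Endothelial-like cells stand at 24.8% in PT I-PpoI against 16.6% in wild type, and each of the other compared classes (those of the 13 described above) lies under 3% in both libraries.

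Of the ligands, Ifng was the one read in number. In T or NK-like cells it stood at 656 CPM [596, 719] in PT I-PpoI against 241 CPM [216, 269] in wild type, a log2 ratio of 1.44 [1.23, 1.65] from 448 and 328 UMIs. It was higher in PT I-PpoI within cluster 16 (639 and 232 CPM) and within cluster 32 (825 and 264 CPM). Type I and type III ligands were near absent from the counts: over the compared classes Ifnb1 had 1 and 2 UMIs, Ifna13 had 1 and 0, and Ifnl3 had 1 and 0.

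Wherever the interferon receptors had enough UMIs to be compared, their levels lay within 2-fold between the libraries. In endothelium Ifnar1 stood at 99.9 and 87.8 CPM and Ifnar2 at 206 and 202 CPM. The interferon gamma receptor Ifngr1 stood at 327 and 350 CPM in macrophages and at 344 and 383 CPM in T or NK-like cells. PT-like cells had Ifnar1 at 18.8 and 16.97, Ifngr1 at 25.1 and 21.0 and Ifngr2 at 12.5 and 7.81 CPM.

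Of the feedback inhibitors, Socs1 was 58.5 and 47.0 CPM in T or NK-like cells. Socs3, which other cytokines also induce, was 161 and 71.8 CPM in macrophages and 90.8 and 26.5 CPM in endothelium. In principal cells it went the other way, at 9.87 and 84.9 CPM. Of the pathway genes that could be compared, 5 of 27 in T or NK-like cells, 2 of 31 in macrophages, 2 of 27 in endothelium and 1 of 21 in PT-like cells were 2-fold or more higher, and 1, 0, 0 and 1 were lower. Over all genes, 4.57%, 5.68%, 6.61% and 8.47% were 2-fold or more higher in the same order of classes.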

How the data were processed

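The authors deposited 1 unfiltered matrix of UMI counts per library, made with the 10x 3′ kit v3.1 per the labels' protocols. Per the submitters' processing notes, reads were counted against mm10 with Cell Ranger 3.1 and analysed in Seurat 3; per the file headers the software was Cell Ranger 4. Cells were called by an EmptyDrops-like test (500 or more UMIs, 10000 simulations, rate 0.01). Barcodes under 200 genes or over 50% mitochondrial UMIs were left out, and Scrublet removed 69 and 271 doublets. Cells were clustered in scanpy 1.11.5 (2000 variable genes, 30 components, resolution 1) without the members and pathway genes. Counts were summed per class; ratios carry a prior of 0.5. A member was compared where its pooled rate predicted 5 or more UMIs in each library, a filter that favours the larger library. TMM factors came from edgeR 4.0.16, with no edgeR test. The ratio script was tested on simulated data. Named were the up to 4 highest and 4 lowest ratios among members that had at least 30 UMIs in either library and the up to 4 highest levels; members named to complete a count, a role or a contrast between classes were chosen after their values were seen. The members and lists were chosen with earlier results of these data known. The values of 1 gene of the pathway list are not reported here.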

Additional observations from a re-analysis of the deposited data

Results flagged for a closer look

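Ifi44 had log2 ratios (PT I-PpoI over wild type) of 3.26 in macrophage-like and 2.62 in conventional dendritic-like cells and of −3.76 in T or NK-like cells. Irf1 had ratios of 1.30 in thick ascending limb-like, 1.06 in thin limb-like, 1.29 in parietal-like and 1.04 in macrophage-like cells and of −1.04 in intercalated-like cells. Ifit2 had ratios of 1.47 in thick ascending limb-like and 1.32 in principal-like cells and of −2.04 in conventional dendritic-like cells. Each stands here because the same gene was 2-fold or more apart in opposite directions in different cell classes. With 1 library per group the difference was not tested. In T or NK-like cells, 65 of the 67 wild type Ifi44 UMIs lay in cluster 32, where endothelial markers summed to 5543 CPM, and their part in the value was not tested.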

How the results depend on the processing

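The limits are those of 1 library per group: no replicate could be left out, and intervals cover counting error only. No paired analysis was possible because each group has 1 library and the labels give no shared replicate numbers. Over 14 to 18 settings per class, the member median stayed above 0 in PT-like, connecting tubule-like, principal-like, parietal-like, endothelial-like, macrophage-like and conventional dendritic-like cells. Its lowest values in endothelial-like and conventional dendritic-like cells were 0.14 and 0.03. These lay under the all-gene medians of the main setting, 0.19 and 0.16. In the other classes just named, the lowest value lay above the all-gene median of the main setting. The member median ranged from −0.13 to 0.47 in thick ascending limb-like, −0.52 to 0.11 in distal convoluted tubule-like and −0.06 to 0.38 in intercalated-like cells. Medians moved most to 1.80 in PT-like cells among members with 20 or more expected UMIs, 0.80 in principal-like cells with the libraries clustered separately, −0.53 in mural-like cells with free RNA subtracted and 0.58 in conventional dendritic-like cells without interferon-high cells. For conventional dendritic-like cells, that last setting left cells out of wild type alone. With cells called by the depth threshold alone the medians moved to 0.49 in endothelial-like and −0.51 in T or NK-like cells. The latter reached 0.35 with members kept in the clustering. The number of members 2-fold or more higher ranged over the settings from 2 to 13 (PT-like), 1 to 5 (thick ascending limb-like), 0 to 2 (distal convoluted tubule-like), 2 to 6 (connecting tubule-like), 2 to 8 (principal-like), 1 to 7 (intercalated-like), 0 to 2 (thin limb-like), 3 to 7 (parietal-like), 0 to 2 (endothelial-like), 0 to 5 (mural-like), 5 to 11 (macrophage-like), 1 to 7 (conventional dendritic-like) and 0 to 3 (T or NK-like). The number 2-fold or more lower ranged from 0 to 1, 0 to 6, 1 to 4, 0 to 0, 0 to 1, 0 to 3, 0 to 1, 1 to 3, 0 to 0, 1 to 5, 0 to 1, 0 to 3 and 1 to 7 in the same order of classes. The lowest PT-like count came with 20 or more expected UMIs and the highest with a filter on the mean of the 2 levels. That filter can admit a member through its PT I-PpoI level alone. It was an alternative chosen after seeing the data, as were cluster 7 alone and cluster 16 alone. TMM factors gave 4. Among single genes, of 1414 values for 87 gene and class pairs, 87 moved and 4 reversed: Irf1 in thick ascending limb-like cells to −0.13 with predicted doublets kept, Ifitm3 in distal convoluted tubule-like cells to 0.63 with separate clustering and 0.47 at Leiden resolution 2, and Isg15 in intercalated-like cells to −0.17 without interferon-high cells. The classes with a larger share of interferon-high cells in PT I-PpoI numbered 3, or 5 at 3 or more genes and 10 without thinning. Counting classes of 20 or more cells, which adds the B-like, neutrophil-like and fibroblast-like classes, 14 members were highest in an immune class in PT I-PpoI. The share of all genes in that setting is not given here, and the 22.0% above holds for the 13 classes only. The cause was not tested.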

Other observations

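Fibroblast-like, B-like and neutrophil-like cells were too few to compare and are given as levels. Values are in the order PT I-PpoI, then wild type. Fibroblast-like cells (33 and 21) held the members at a summed 3119 and 1854 CPM, with Ifit3 at 180 and 18.2 CPM from 49 and 2 UMIs. A single cell of the PT I-PpoI library held 139 of the 848 member UMIs and 43 of the 49 Ifit3 UMIs. Neutrophil-like cells (41 and 24) held them at 3789 and 1503 CPM. In these, Ifitm3 stood at 1214 and 540 CPM, Oasl2, of the oligoadenylate synthetase family, at 454 and 38.5 CPM from 43 and 2 UMIs, and Rsad2 at 359 and 116 CPM from 34 and 6 UMIs. B-like cells (47 and 138) held them at 553 and 536 CPM, with Bst2 at 207 and 61.2 CPM.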
